A study of Homo sapiens with 7 samples.

Results

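The genes examined here encode subunits of the splicing factors SF3A (SF3A1, SF3A2 and SF3A3) and SF3B (SF3B1, SF3B2, SF3B3, SF3B4 and SF3B5). Both subunits of U2AF (U2AF1 and U2AF2) were included. The 10 genes were chosen by name, and the SF3B subunits SF3B6 and PHF5A were counted with the other spliceosome genes. All 10 symbols had 1 Ensembl identifier each among the 62238 genes of the exon count tables, and all 10 were among the 24887 genes with enough reads to be tested.

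The data came from MEG-01 cells, a human megakaryoblastic leukemia line, at passage 5 and in exponential growth. RNA-seq covered 3 libraries, 1 of control MEG-01 cells and 2 of stable lines in which the RNA binding protein RBM15 was knocked down, 1 with shRBM15#1 and 1 with shRBM15#2. RIP-seq, in which RNA is precipitated with the protein bound to it, covered 4 libraries of MEG-01 cells precipitated with normal IgG or with an anti-RBM15 antibody. All 7 samples, the control included, are labelled as carrying lentiviral transgenes. Each knockdown line is a single culture with its own shRNA, and the control is 1 library, so the spread behind every test came from the difference between the 2 knockdown lines.

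SF3A and SF3B are parts of the U2 snRNP, the particle that pairs with the branch point of an intron. SF3A joins the SF3B complex to the rest of the particle. In the SF3B complex, to which SF3B3 and SF3B5 also belong, SF3B1 clamps the branch point helix. Before that step U2AF marks the end of the intron, with U2AF2 bound to the pyrimidine tract and U2AF1 to the AG at the 3′ splice site. Mutations of SF3B1 and U2AF1 are known from myeloid neoplasms, and the study was concerned with RBM15 and SF3B1 in splicing. The question addressed here is whether the transcripts of these factors are bound by RBM15 and differ when RBM15 is reduced.

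The knockdown was visible in the targeted gene. In CPM, the reads on a gene's exon bins scaled to the size of the library, RBM15 stood at 80.2 in the control, 43.7 in shRBM15#1 cells and 40.7 in shRBM15#2 cells. Its log2 fold change was -0.93 (SE 0.23), with a Benjamini-Hochberg adjusted p of 0.0908 in the edgeR quasi-likelihood test, above the threshold of 0.01 used for genes. The libraries held between 41629454 and 53230029 reads on exon bins, and the share of reads on no bin was 32.0% in shRBM15#1 cells against 23.2% in the control and 23.5% in shRBM15#2 cells. Megakaryocyte markers summed to 1261 CPM in the control, 940 in shRBM15#1 cells and 1227 in shRBM15#2 cells, and the 11 genes of this list did not move together. ITGA2B was at 919, 476 and 607 CPM, while TAL1 was at 236, 347 and 399, ITGB3 at 6.28, 17.9 and 51.8, PPBP at 2.38, 6.12 and 56.9 and GP6 at 20.5, 23.1 and 40.7, and the defining markers PF4 and GP9 were below 0.1 CPM in each library. The 7 erythroid markers summed to 896, 4244 and 4206 CPM in the same order, most of it the fetal globin HBG2, while monocyte markers summed to 38.4, 33.6 and 63.3 CPM and markers of T and B cells to at most 4.95 CPM. The part of these marker differences in the results below was not tested, and in bulk samples a change in the share of cells and a change in RNA per cell cannot be told apart.

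The RIP-seq labels conflict with the deposited sites. The study's methods define the 1515 sites by more reads in the RBM15 samples than in the controls. At all 1515 sites, however, a second library labelled normal IgG had more reads than a second library labelled anti-RBM15 and more than the first normal IgG library. These 2 libraries were therefore left unassigned, and each site is given below by its reads in the first normal IgG and the first anti-RBM15 library, with the reads of the unassigned libraries beside them.

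Deposited RBM15 sites lay in 4 of the 10 genes, SF3B1, SF3B3, U2AF2 and SF3A1. Of the 24887 tested genes 3.65% had a site, and of the 9027 genes expressed in the control at or above the lowest of the 10 genes 9.26% had one. The share of genes with a site rose with their level, to 19.4% at or above 100 CPM and 29.8% of 561 genes at or above 300 CPM. SF3B1 and SF3B3 belonged to this top class and had a site, while SF3A3 and SF3B2 belonged to it and had none. U2AF1, SF3A2, SF3B4 and SF3B5 had none either. Of the 71 other spliceosome genes 12 had a site. Of these 7 were among the 24 further U2 snRNP proteins and partners in the early spliceosome.

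There were 6 sites in the 4 genes, 4 in 3′UTRs and 2 in introns, and the deposited table gives each its region from the RefSeq transcript it overlaps. The RNA these sites cover is shown by the 30 bases of each site that hold the most T (U in the RNA), 5′ to 3′ on the transcript strand of GRCh37, with runs of 4 or more T in capitals.
SF3B1 3′UTR, chr2:198257005-198257034, minus strand: tcttataaTTTTattgtttaTTTTgtgttt
SF3B3 3′UTR, chr16:70606039-70606068, plus strand: ccttaaTTTTTaattggTTTTcttgtaaat
U2AF2 first intron site, chr19:56172989-56173018, plus strand: tcccatggtcgctgttcTTTTaTTTTTgat
U2AF2 second intron site, chr19:56173506-56173535, plus strand: tctcttgtgtttcgtgTTTTTcttcaTTTT
U2AF2 3′UTR, chr19:56185936-56185965, plus strand: ggtttcttacgtagttgaTTTTTcctcttt
SF3A1 3′UTR, chr22:30730467-30730496, minus strand: tttgccttgcctgcatatttgtttcgctct
A run of at least 4 T on the transcript strand was present in 6 of the 6 sites, in 62.9% of the 1287 deposited sites that have a strand, in 96.0% of the 427 3′UTR sites and in 43.8% of the 752 intron sites. The SF3B1 site was 37.9% T, above the median of 33.1% over 3′UTR sites. The second intron site of U2AF2 was 40.8% T and 77.5% pyrimidine, rank 29 by T and rank 36 by pyrimidine among the 1287 sites. The first intron site of U2AF2 had 21.8% T, 41.2% C and a CA repeat of 42 bases. The SF3A1 and U2AF2 3′UTR sites had 30.5% and 31.1% T, and the SF3B3 site had 28.3%.

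The SF3B3 site had the most reads. SF3B3 encodes a scaffold subunit of the SF3B complex. Its site at chr16:70605639-70606115 had 40 reads in the normal IgG library and 1267 in the anti-RBM15 library, and 857 and 59 in the unassigned libraries labelled normal IgG and anti-RBM15. The anti-RBM15 library was thus 31.7 times the normal IgG library (95% exact interval of the ratio 23.1 to 44.6, which covers counting error only), and the site ranked 120 of 1515 by its anti-RBM15 reads. It spanned the stop codon, from 74 bases before the last coding base to 402 bases after it, in a 3′UTR that the reference annotation carries on for 5858 bases.

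The SF3B1 site at chr2:198256749-198257046 also covered a stop codon. It started 16 bases before the last coding base and ended 281 bases after it. It had 45 reads in the normal IgG library and 1108 in the anti-RBM15 library, a ratio of 24.6, with 703 and 49 in the unassigned libraries. The SF3A1 site was the weakest of the 6. SF3A1 is the largest SF3A subunit, and its site at chr22:30730178-30730583, which began 3 bases after the last coding base, had 15 reads in the normal IgG library and 269 in the anti-RBM15 library, with 178 and 14 in the unassigned libraries. An AATAAA, the common poly(A) signal, started 16 bases before the end of this site. AATAAA was in no other of the 6 sites. AATAAA or ATTAAA stood in the last 30 bases of 70.3% of the canonical protein-coding transcripts of the annotation.

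U2AF2, which binds the pyrimidine tract, had 3 sites. Of the 1014 genes with any site, 5.03% had 3 or more. Its 3′UTR site at chr19:56185733-56186021 had 33 reads in the normal IgG library and 459 in the anti-RBM15 library, with 404 and 36 in the unassigned libraries. Both others lay in intron 5, which is 1312 bases long. The first, at chr19:56172715-56173022, had 16 reads with normal IgG and 439 with anti-RBM15, and 379 and 12 in the unassigned libraries. The second, at chr19:56173350-56173655, had 32 and 589 reads, and 456 and 39 in the unassigned libraries. An annotated antisense RNA overlaps the second site, and its part in the reads there was not tested. Between the intron sites lies an exon that occurs in the annotation only in transcripts marked for nonsense-mediated decay. This exon starts at chr19:56173137, 114 bases after the first site, and its longer form ends 37 bases before the second.

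**Figure D1:**
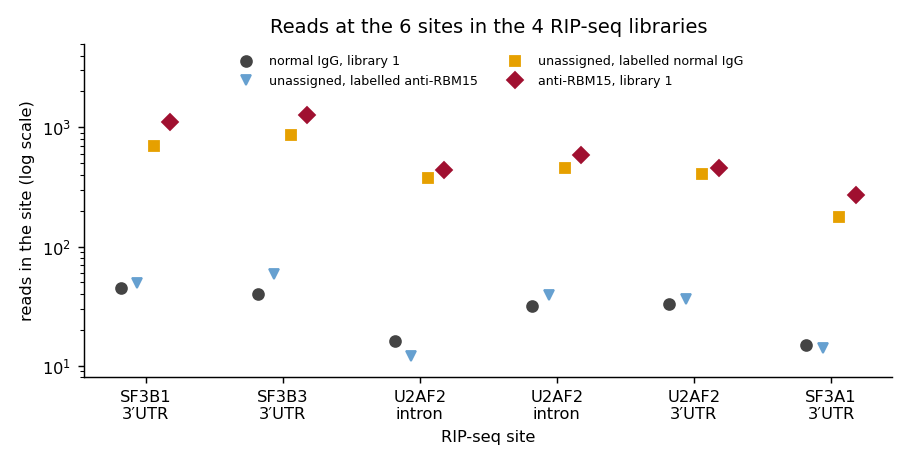
Reads (log scale) in the 6 deposited RBM15 sites of SF3B1, SF3B3, U2AF2 and SF3A1, each point 1 library. The first anti-RBM15 library held 269 to 1267 reads and the first normal IgG library 15 to 45, and at every site the unassigned library labelled normal IgG lay near the anti-RBM15 library and the unassigned library labelled anti-RBM15 near the normal IgG library.

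Across all sites the anti-RBM15 library had 28.5 times the reads of the normal IgG library in sum, and the median ratio over the 1463 sites with IgG reads was 31.3. The ratios at the 6 sites ran from 13.9 at the U2AF2 3′UTR to 31.7 at SF3B3, and 5 of the 6 were below that median. Since the sites were selected for more reads in the RBM15 samples and sequencing depth is unknown for these libraries, the ratios describe the sites and were not tested.

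The transcript levels of the 10 genes spanned a wide range. Per kilobase of coding exon bins, SF3A3 stood highest, at 178 CPM per kb in the control, 153 in shRBM15#1 cells and 170 in shRBM15#2 cells. U2AF2 followed with 147, 140 and 155, then SF3B1 with 132, 114 and 129, SF3B3 with 114, 111 and 117, U2AF1 with 107, 86.9 and 87.2, and SF3B2 with 102, 94.5 and 95.1. Below them were SF3B5 with 61.8, 69.8 and 130, SF3A1 with 17.1, 17.0 and 14.01, SF3A2 with 8.71, 7.10 and 5.00, and SF3B4 with 5.51, 7.87 and 8.45. The ranges over the 3 libraries overlapped for the neighbours SF3A3 and U2AF2, SF3B1 and SF3B3, U2AF1 and SF3B2, SF3B2 and SF3B5, and SF3A2 and SF3B4, and not for the other neighbours in this order. A bin counted as coding if any part of it was coding, so some of these bins include UTR. SF3B5 is a single exon bin that includes its UTRs, and the coding bins of SF3A1 include the bin with its 3′UTR site. SF3A1 and SF3A2 share their first exons with neighbouring genes, 6 and 3 bins that held 0 reads in every library. Their levels thus hold no reads of those exons, while any such bin classed as coding still counts in the length.

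**Figure D2:**
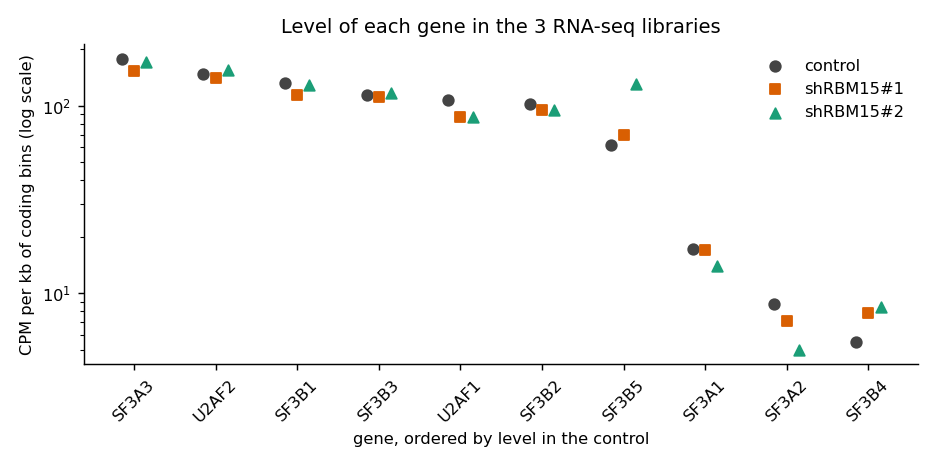
Level of each of the 10 genes in CPM per kilobase of coding exon bins (log scale), 1 point per RNA-seq library, ordered by the control. The control levels run from 178 for SF3A3 to 5.51 for SF3B4, and the points that part most are those of SF3B5, at 61.8 in the control, 69.8 in shRBM15#1 cells and 130 in shRBM15#2 cells.

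None of the 10 genes passed the test for a change in expression. At an adjusted p under 0.01 edgeR called 86 of 24887 genes (0.346%), 0.0683% higher and 0.277% lower in the knockdown, and 0 of the 10. At an unadjusted p under 0.05, which 18.8% of all genes reached, it was again 0 of the 10, and DESeq2 also called 0. The median log2 fold change of the 10 genes was -0.12, against 0.02 over all genes tested. The 10 genes had a median of 222 CPM in the control, against 2.57 over all genes tested. Among expressed genes close to each of the 10 in exon length and GC content, the median fold change ran from -0.25 for U2AF1 to -0.05 for SF3B4.

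SF3B4 and SF3B5 were higher in both knockdown lines. SF3B4, a subunit with RNA recognition motifs that contacts the RNA upstream of the branch point (ENSG00000143368, chr1:149895209-149899695), had 11.6 CPM in the control, 16.5 in shRBM15#1 cells and 17.9 in shRBM15#2 cells. Both lines lay above the control, by 0.50 and 0.62 on the log2 scale, and the fitted log2 fold change was 0.56 (SE 0.29, edgeR adjusted p = 0.333). SF3B5, the smallest SF3B subunit (ENSG00000169976, chr6:144416021-144416710), had 45.6 CPM in the control, 51.4 in shRBM15#1 cells and 96.2 in shRBM15#2 cells. Here the second line was far from the other libraries, and the log2 fold change of 0.70 (SE 0.36, edgeR adjusted p = 0.330) rested on it, since the lines gave 0.17 and 1.08 alone.

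SF3A2 and U2AF1 had the lowest fold changes. SF3A2, a zinc finger subunit of SF3A (ENSG00000104897, chr19:2236823-2248654), had 15.7 CPM in the control, 12.9 in shRBM15#1 cells and 9.35 in shRBM15#2 cells, a log2 fold change of -0.50 (SE 0.32, edgeR adjusted p = 0.431). U2AF1, the subunit that reads the AG (ENSG00000160201, chr21:44513066-44527680), had 162, 128 and 125 CPM. Its 2 lines agreed closely, at -0.34 and -0.37 on the log2 scale, with a fitted value of -0.36 (SE 0.22, edgeR adjusted p = 0.412).

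The other 6 genes lay between a log2 fold change of -0.16 for SF3A1 and 0.01 for U2AF2. SF3B1 (ENSG00000115524, chr2:198253239-198299803), the most abundant of the 10 before length is considered, had 632 CPM in the control, 538 in shRBM15#1 cells and 613 in shRBM15#2 cells. Its log2 fold change was -0.14, and 2 SE on either side reached from -0.59 to 0.31. SF3B3 (ENSG00000189091, chr16:70557694-70611573) had 527, 497 and 532 CPM, and U2AF2 (ENSG00000063244, chr19:56165512-56186082) had 282, 268 and 299. For both, the 2 lines fell on either side of the control. SF3A3 had 348, 294 and 331 CPM and SF3B2 had 301, 281 and 282. SF3A1 had 64.5, 63.3 and 52.1 CPM. In all, 6 of the 10 genes were below the control in both lines and 2 were above it in both, against 39.5% and 39.7% of all genes tested. With a trend on exon length, GC content and level removed, the fold changes of SF3A1, SF3B2 and SF3B3 changed sign, to 0.12, 0.13 and 0.06. Those of SF3A2 and U2AF1 shrank to -0.07 and -0.10, so that SF3B1 was then lowest at -0.16, and those of SF3B4 and SF3B5 were 0.87 and 0.77.

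**Figure D3:**
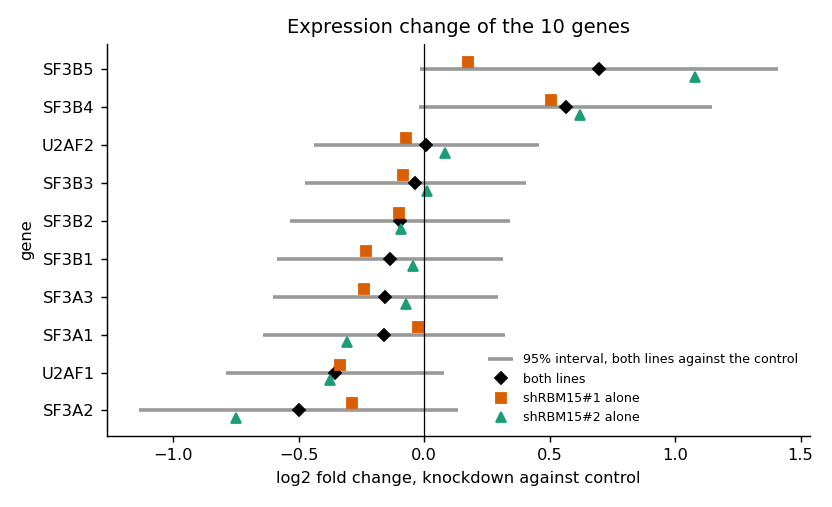
Log2 fold change of each of the 10 genes, RBM15 knockdown against control. Diamonds give the fit of both lines, squares shRBM15#1 alone and triangles shRBM15#2 alone. Grey bars reach 2 SE on either side of the fit, which the legend calls a 95% interval. All 10 bars include 0, with fits from -0.50 for SF3A2 to 0.70 for SF3B5.

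The other genes of the spliceosome did not pass the test either. Of 71 further genes, edgeR called 0 at an adjusted p under 0.01 and DESeq2 0, and 9 reached an unadjusted p under 0.05, 2 higher and 7 lower. Over all 24887 genes tested a larger share, 18.8%, reached that unadjusted p in edgeR's test, 2392 higher and 2281 lower. The median log2 fold change of the 71 genes was 0.02. The 24 further U2 snRNP proteins and partners had a median of -0.03, with the SF3B subunits SF3B6 at -0.07 and PHF5A at 0.43 among them. For the 8 Sm core proteins it was 0.17 and for the 8 U1 snRNP proteins -0.04. The 24 proteins of the U4/U6.U5 tri-snRNP had 0.10 and the 7 proteins of the U11/U12 snRNP -0.29. Among those that moved the same way in both lines, high values were those of SNRNP25 of the U11/U12 snRNP at 1.11 (edgeR adjusted p = 0.117), the RNA helicase DDX46 at 0.57, SNRPG at 0.52 and SNRPD3 at 0.52. The lowest were SNRPN at -1.20 (edgeR adjusted p = 0.165), the U2AF1 paralog U2AF1L4 at -1.25 and -0.79 in the lines, LSM8 at -0.86, the helicase DDX39B at -0.61 and SNRNP35 at -0.60.

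In exon usage, the share of bins called in these genes was below that over all genes. The bin that differed most was in the last exon of SF3B3. Usage was measured per exon bin, the smallest stretch that the annotation's exons cut a gene into, as the relative log2 fold change of the bin against the rest of its gene. In the 9 genes with more than 1 bin, 285 bins had at least 30 reads over the 3 libraries. Of these, 2 (0.702%) were called in edgeR's test, which asked for a fold above 1.2 with p under 0.05 before adjustment, both lower in the knockdown, against 1.45% of 234192 bins over all genes and 0.787% that were called lower. The called bins were the last bin of SF3B3 and a short exon of SF3B1. Neither had an adjusted p under 0.05, which 0.0205% of all bins had.

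The last bin of SF3B3, chr16:70606203-70608820, is 2618 bases long and is the farthest part of its 3′UTR that was counted. The annotated 3′UTR runs 2751 bases beyond it, without counts. This far bin had 1130 reads in the control, 399 in shRBM15#1 cells and 659 in shRBM15#2 cells. The first part of the same last exon, chr16:70605576-70606202, which holds the end of the coding sequence and the RBM15 site, had 1421, 1232 and 1595 reads. Within 1 exon the near part thus kept pace with the gene while the far part was lower in both lines.

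For the far bin the relative log2 fold change was -1.06 (SE 0.25), with -1.27 for shRBM15#1 and -0.87 for shRBM15#2 alone. The unadjusted p was 2.49e-05 in edgeR's test and the adjusted p 0.0849, the 68th smallest p of the 234192 bins. A DEXSeq-type model fitted in DESeq2 gave an adjusted p of 0.0255. The near bin was at 0.05, and the other 51 tested bins of the gene lay between -0.52 and 0.87. The far bin held 44.3% of last-exon reads in the control (95% Wilson interval 42.4 to 46.2), 24.5% in shRBM15#1 cells (22.4 to 26.6) and 29.2% in shRBM15#2 cells (27.4 to 31.1), a mean of 26.9% ± 3.38 (SD, n = 2) in the knockdown lines. The intervals of the control and of both lines do not overlap, and like all intervals on reads here they cover counting error only.

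The RBM15 site ended 87 bases before the far bin. In the annotation the near bin ends where 1 transcript with a retained intron ends, and the main transcript runs 2751 bases beyond the last bin counted, so reads in that stretch were not part of these counts. Neither AATAAA nor ATTAAA, searched on the transcript strand, was found between the start of the last exon bin and the end of the main transcript other than 1 AATAAA 23 bases before that end. Whether the site has a part in the usage of the far bin was not tested.

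**Figure D4:**
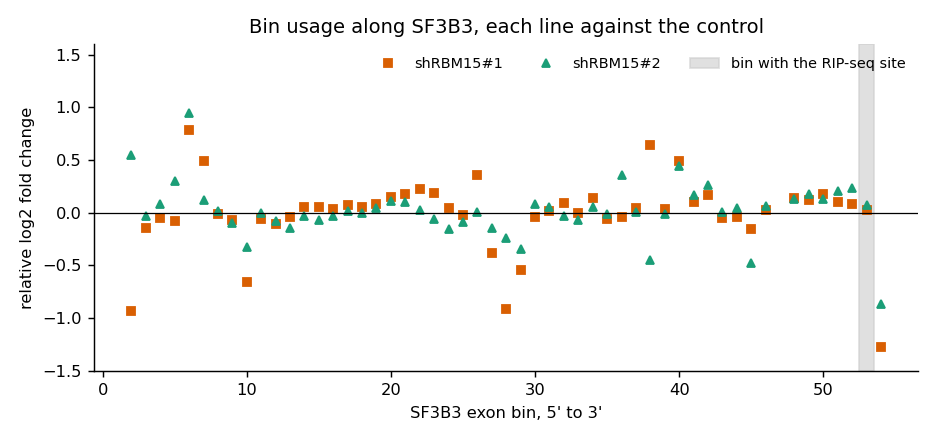
Relative log2 fold change of each tested exon bin of SF3B3, 5′ to 3′, for shRBM15#1 (squares) and shRBM15#2 (triangles) against the control. The shaded bin holds the RBM15 site and lies at 0.05 in the fit of both lines, and the last bin lies at -1.27 and -0.87.

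In the other genes the parts of the 3′UTRs that were counted differed less. Counted in the last exon of the main transcript, the share of a gene's reads on 3′UTR bins was 9.74% in the control, 8.18% in shRBM15#1 cells and 8.88% in shRBM15#2 cells for SF3A3, with the control above both lines. For SF3B1 it was 3.22%, 3.12% and 3.29%, on a single bin that holds most of the RBM15 site. That bin had 1007, 751 and 1051 reads, with lines on either side of the control. It is 281 bases long, in a 3′UTR of 2522 bases in the annotation, and the far part of this 3′UTR was not counted. For SF3A3 the bin with the smallest p was the last of the 3′UTR, with 1157, 666 and 989 reads and a relative log2 fold change of -0.32 (edgeR adjusted p = 1.00). The share was 5.23%, 4.55% and 4.46% for SF3A1 and 5.07%, 4.83% and 5.02% for U2AF2. It was lower in both lines in 4 of the 7 genes with such bins, with a median difference of -0.14 percentage points, against 2525 of 6690 protein-coding genes with at least 500 reads in each library and a median of -0.01 points over them. With all bins classed as 3′UTR, which in SF3B1 adds early ends inside the gene that are described below, it was 5 of 7 with a median of -0.73 points, against 38.4% of 6794 genes and -0.02 points. Both counts of 7 genes include SF3B3, and also U2AF1, which had 2, 5 and 3 reads on 3′UTR bins. Of the 20479 3′UTR bins tested over all genes 2.51% were called, 138 higher and 376 lower. Of the 12 tested in the genes examined here 1 was called, the far bin of SF3B3, which was lower.

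The other called bin was a 60-base exon of SF3B1, chr2:198263693-198263752. The annotation has it as the first exon of a partial coding transcript whose start is not known. It had 58 reads in the control, 24 in shRBM15#1 cells and 31 in shRBM15#2 cells, while the coding exons on either side had 972, 762 and 970 and 1028, 781 and 1019 reads in the same order, relative log2 fold changes of -0.00 and -0.03. Its relative log2 fold change was -0.91 (SE 0.42, unadjusted p = 0.0306 and adjusted p = 1.00 in edgeR's test), at -0.89 and -0.93 in the lines. With its flanking exons as the base, it held 2.82% of reads in the control (95% Wilson interval 2.19 to 3.63), 1.53% in shRBM15#1 cells (1.03 to 2.27) and 1.53% in shRBM15#2 cells (1.08 to 2.17). The interval of the control overlaps that of shRBM15#1 and lies just above that of shRBM15#2, without overlap.

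A longer stretch of SF3B1 moved the same way without passing the test. Bins 036 to 040, chosen after their values were seen, lie in the intron before the exon at chr2:198283233 and belong to short or decay-marked transcripts that end early. They had 1297 reads in the control, 713 in shRBM15#1 cells and 1041 in shRBM15#2 cells. Together with the exons on either side this was 40.2% (95% Wilson interval 38.5 to 41.9), 31.9% (30.03 to 33.9) and 33.5% (31.9 to 35.2), so the control lay above both lines. Taken singly the 5 bins had unadjusted p values between 0.0859 and 0.267 in edgeR's test. The DEXSeq-type model called bins 036 and 037 at the unadjusted threshold, with adjusted p values of 1.00.

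U2AF1 has 2 coding exons of 67 bases that replace each other and give its a and b forms. They occur together in no protein-coding transcript of the annotation, though in 2 transcripts marked for decay or with a retained intron. Their 3′ splice sites, which are what the U2AF heterodimer reads, are shown with that of the U2AF2 decay exon. Each is given as the last 27 intron bases and the first 3 bases of the exon, with the AG in capitals. For the 60-base exon of SF3B1 the same stretch around its annotated start is shown, with the nearest AG in capitals. That start is not known to be a 3′ splice site.
U2AF1 upstream exon, chr21:44521540-44521569, minus strand: cccctttttatttttttttccccgcAGacc
U2AF1 downstream exon, chr21:44520627-44520656, minus strand: ataaagttgttgcgttttgtatttcAGacc
U2AF2 decay exon, chr19:56173110-56173139, plus strand: aagagttgtttccatttctctttaaAGtga
SF3B1 60-base exon, chr2:198263750-198263779, minus strand: tttttctctcttcgtAGgtgtaaataccat
The 20 bases before the AG held 18 pyrimidines at the upstream exon of U2AF1, 14 at the downstream one and 16 at the decay exon of U2AF2. At the SF3B1 exon no AG stood directly before the annotated start, and the nearest lay 10 bases further up, behind 14 pyrimidines in 15 bases.

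The balance of the U2AF1 pair was nearly the same in the 3 libraries. The downstream exon had 539, 373 and 412 reads and the upstream exon 269, 194 and 218, in the order control, shRBM15#1 and shRBM15#2. The downstream exon thus held 66.7% in the control (95% Wilson interval 63.4 to 69.9), 65.8% in shRBM15#1 cells (61.8 to 69.6) and 65.4% in shRBM15#2 cells (61.6 to 69.0). The mean of the lines, 65.6% ± 0.274 (SD, n = 2), was 1.12 percentage points below the control, within the interval of each library. The exon's own relative log2 fold change was -0.07 for the downstream and 0.00 for the upstream bin. Reads of transcripts that retain the introns around the pair fall on both exons as well.

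U2AF1 also had the largest share of reads on bins that belong only to transcripts without a full coding sequence, mostly retained introns. This share was 31.1% in the control (95% Wilson interval 30.1 to 32.1), 29.3% in shRBM15#1 cells (28.1 to 30.5) and 28.2% in shRBM15#2 cells (27.1 to 29.3). Its bin with the smallest p, in the intron after the downstream exon (chr21:44517732-44520562), had 493, 269 and 293 reads and a relative log2 fold change of -0.42 (edgeR adjusted p = 1.00). In SF3A2 the share was 10.3%, 11.4% and 13.7%, and in the other 6 genes with such bins it was between 1.89% and 3.49%. The median difference over the 8 genes was -0.10 percentage points, and over all 6682 genes -0.02. Of all reads on exon bins, such bins held 12.3% in the control, 10.8% in shRBM15#1 cells and 10.9% in shRBM15#2 cells. Of 31404 such bins tested over all genes, 425 were called higher and 633 lower, and of the 53 in the genes examined here 0 were called.

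The decay exon of U2AF2 between the RBM15 sites was little used in any library. Its 64-base form had 41 reads in the control, 27 in shRBM15#1 cells and 57 in shRBM15#2 cells, which is 2.37% (95% Wilson interval 1.75 to 3.19), 1.74% (1.199 to 2.52) and 2.70% (2.09 to 3.48) of reads together with the flanking coding exons. The lines lay on either side of the control, and a difference was not detectable at this depth. The 5′UTR bin of U2AF2, its bin with the smallest p, had 485, 500 and 758 reads (relative log2 fold change 0.38, edgeR adjusted p = 1.00). The 3′UTR bin of U2AF2, which holds the third RBM15 site, had 630, 531 and 695 reads and a relative log2 fold change of -0.02. The bin of SF3A1 with its site had 393, 329 and 293 reads and -0.13. In U2AF2 2 bins and in SF3B2 1 bin overlapped another gene, with 1864 and 513 reads over the 3 libraries. Which gene those reads came from was not tested.

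**Figure D5:**
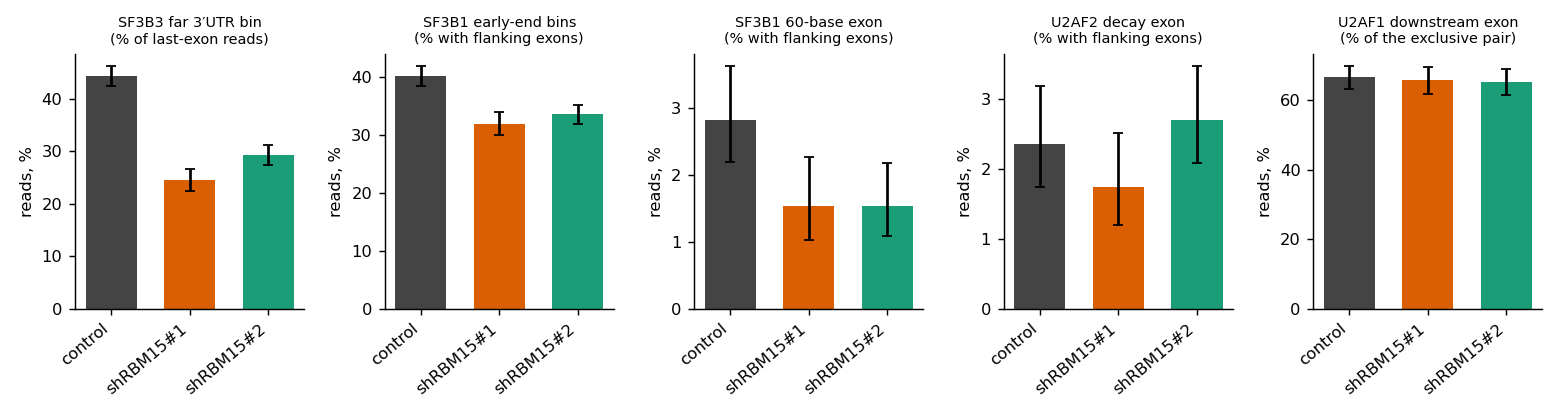
Share of reads (percent, bars from 0) on 5 alternative stretches of SF3B3, SF3B1, U2AF2 and U2AF1 in the control and both knockdown lines, with 95% Wilson intervals for counting error. The far 3′UTR bin of SF3B3, the last one counted, falls from 44.3% to 24.5% and 29.2%, while the U2AF1 downstream exon stays between 65.4% and 66.7%.

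In SF3B2 the bin with the smallest p lay outside the full coding transcripts and had 40, 23 and 22 reads (relative log2 fold change -0.70). In SF3A1 it was a bin with 22, 13 and 7 reads (-0.93). In SF3A2 and SF3B4 it was a coding bin, with 64, 78 and 53 reads (0.59) and with 50, 84 and 110 (0.41), which made up 8.23%, 13.5% and 10.9% of the reads of SF3A2 and 8.70%, 11.4% and 11.8% of those of SF3B4. Each of these 4 bins had an adjusted p of 1.00 in edgeR's test. Over all 285 bins the median absolute relative log2 fold change was 0.10, against 0.15 over all genes.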

How the data were processed

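Per the labels and the study's methods, the authors aligned RNA-seq reads (unstranded) to GRCh37 with STAR and Ensembl 70 and deposited unnormalized counts of reads for each exon bin. HTSeq 0.6.0 is among the tools in the submitters' processing notes. For RIP-seq the authors called peaks on all samples together and deposited read counts for significant peaks only (DESeq). Their fold change and p-value columns were not used.

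Bin counts were summed per gene and fitted with edgeR 4.0.16 (glmQLFit, TMM, summed count of at least 30, Benjamini-Hochberg adjusted p under 0.01). Bin usage was fitted with diffSpliceDGE on bins with at least 30 counts. DEXSeq was not used here. The SE of a bin is that implied by its p. DESeq2 1.42.0 and the settings in the closing section were alternatives. Scripts were tested on simulated data. With 1 control, p-values measure the spread between the knockdown lines only. Another 809 malformed lines of the deposited result table were left out. Bin classes came from GENCODE v44 lifted to GRCh37.

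Members and lists were chosen with earlier results of these data known. The genes named were the 10 members, called bins and each member's bin with the smallest p, all sites of members, and the 5 other spliceosome genes with the largest changes in each direction, of which 1 is not reported here.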

Additional observations from a re-analysis of the deposited data

Results flagged for a closer look

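The unassigned RIP-seq library labelled normal IgG had reads above those of the first normal IgG library at all 6 sites of these genes, beyond the counting intervals of both. The same order held at all 1515 deposited sites, so it is not particular to these genes. Sequencing depth is unknown for these libraries, and the counting intervals do not allow for it. The unassigned library had 703 reads at the SF3B1 site and 857 at the SF3B3 site. At U2AF2 it had 379 reads at the first intron site, 456 at the second and 404 at the 3′UTR site. At the SF3A1 site it had 178. The first normal IgG library had 45, 40, 16, 32, 33 and 15 reads at these sites in the same order.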

How the results depend on the processing

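The count of called genes was 0 of the 10 and 0 of the 71 others with size factors in place of TMM, without the filter on low counts, without bins shared with another gene, with DESeq2 and at an adjusted p under 0.05. The sign of the fold change was kept in 10 of 10 genes with size factors, DESeq2 and without shared bins, in 9 without the low-count filter and in 7 with the trend removed, an alternative chosen after seeing the data. Leaving out 1 knockdown line kept 9 of 10 signs.

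Of the exon bins, 1 was called with at least 300 counts per bin (SF3B3, the other being too small), 0 at an adjusted p under 0.05 and 5 in the DEXSeq-type model. The SF3B3 far bin ran from -1.27 to -0.87 with 1 line left out. With all tested genes as background, 3.65% had a site. Restricted to the last exon of the main transcript, a choice made after the data were seen, the median difference in 3′UTR share was -0.140 points in place of -0.728. With bins of at least 30 counts the median difference in 3′UTR share was -0.812 points and that on transcripts without a full coding sequence -0.110, and with 1 line left out they ran from -0.682 to -0.676 and from -0.102 to -0.101. The restriction of the U2AF1 pair to protein-coding transcripts was added after the data were seen. No paired analysis was possible because there is 1 control library, to which the labels give no replicate number, so a block leaves nothing to fit. Counts of 58 reads or fewer limit the small exons.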
